A study of Mus musculus with 33 samples.

Results

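Retinoic acid is a small lipid signal made from vitamin A, and 8 genes that make it, break it down, carry it or read it are described here: Aldh1a2, Dhrs3, Cyp26a1, Crabp1, Crabp2, Rara, Rarb and Rarg. They were taken by name from the 21844 genes to which the deposited transcript counts could be summed. All 33 libraries came from embryoid bodies, which are aggregates of differentiating mouse embryonic stem cells, grown without serum, dispersed on day 2 and harvested on day 4.

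Activin A is a ligand of the TGF-β family, and SB-431542 blocks the type I receptors that activin and Nodal share. The dose set held 7 libraries made with DP-seq, in which cDNA is amplified from a defined set of heptamer primers: 2 control libraries without either agent (SFM), 1 with SB-431542 (SB), and 1, 2 and 1 libraries of cells given activin at 3, 15 or 100 ng/mL (called AA3, AA15 and AA100). The method set compared AA3 with AA100 in standard RNA-seq from 20 ng of mRNA (2 and 1 libraries), DP-seq from 50 pg with the original 44 primers (1 and 2) and SMART-seq, a full-length cDNA method, from 50 pg (2 and 2). A further 16 DP-seq libraries of AA3 material were a dilution series from 10 ng to 1 pg, 3 other primer sets at about 500 pg and 1 paired-end library at about 100 pg. Library totals were 13053122 to 15707808 counts in the dose set, 10389043 to 10738438 in standard RNA-seq, 10678979 to 13389156 in DP-seq at 50 pg and 25897343 to 30609013 in SMART-seq. Levels are given as CPM (counts scaled to the library total), with 95% Wilson intervals in brackets that cover counting error only.

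The SFM pair stood apart. SFM replicate 2 is labelled as carrying added yeast transcripts, and the log2 ratio of the 2 SFM libraries had an SD of 1.966 over genes, against 0.448 for the AA15 pair and 0.236 for the standard AA3 pair. Every pair other than SFM is labelled as technical, so p-values measure the spread between libraries and not between cultures. With both SFM libraries in the fit, edgeR's quasi-likelihood test with Benjamini-Hochberg adjustment called 0 of 12180 genes (0.0%) at an adjusted p under 0.05 in each of the 4 comparisons with SFM. At an unadjusted p under 0.05 it gave 179 genes for SB, 197 for AA3, 702 for AA15 and 541 for AA100, and DESeq2 called 17, 14, 168 and 106. The 4 comparisons share the SFM libraries.

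Retinol is first oxidised to retinaldehyde, which Aldh1a2 oxidises on to retinoic acid and which Dhrs3 can turn back into retinol. Cyp26a1 is a cytochrome P450 that hydroxylates retinoic acid and so starts its removal. Crabp1 and Crabp2 bind retinoic acid in the cytoplasm, and Crabp2 can hand it to the receptors in the nucleus. Rara, Rarb and Rarg encode the nuclear receptors, which sit with an RXR partner on paired copies of a short DNA word and recruit corepressors or coactivators. In the gastrulating embryo Aldh1a2 marks the trunk mesoderm, while Cyp26a1 is active in the early epiblast and later at the tail end.

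Rarb and Cyp26a1 are known targets of these receptors, and their promoters are shown because they were the members whose promoter held the receptors' paired word. The search covered 250 bases before to 50 after each RefSeq start (GRCm38.p6). It looked on both strands for direct repeats in one orientation, with each of the 2 words spelled AGGTCA or GGGTCA or, alternatively, AGTTCA or GGTTCA, 5, 2 or 1 bases apart, and a match to one spacing is not a match to another. With 5 bases between, 32 of 32851 promoters (0.0974%) held a match, with 2 bases 88 (0.268%) and with 1 base 73 (0.222%). Among 13 promoters of 7 members (Crabp2 was not in the table), 2 matched, both with 5 bases between. Rarb and Cyp26a1 were known targets before the spellings were set, so this count is not a test of enrichment. Capitals mark the matched repeat.
Rarb: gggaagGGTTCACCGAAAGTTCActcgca
Cyp26a1: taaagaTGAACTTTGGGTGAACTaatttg
The Rarb stretch is chr14:16575507-16575535 on the minus strand, with the repeat 53 to 37 bases before the start. The Cyp26a1 stretch is chr19:37697770-37697798 on the plus strand, with the repeat 32 to 16 bases before the start on the opposite strand, where it reads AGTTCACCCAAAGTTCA. The starts used in the search are not the ends of the gene spans given below, and both stretches lie inside those spans. A match describes these letters only, and binding was not measured.

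In GRCm38 the synthesis gene Aldh1a2 lies at chr9:71215789-71296243 and Dhrs3 at chr4:144892534-144928209. Cyp26a1 lies at chr19:37697738-37701536. The binding protein genes are at chr9:54764748-54773110 (Crabp1) and chr3:87948693-87953372 (Crabp2). Of the receptors, Rara spans chr11:98927800-98974942, Rarb chr14:16430839-17082331 and Rarg chr15:102234938-102257522.

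Aldh1a2, the enzyme that makes retinoic acid, had its most counts in the dose set in 1 of the 2 control libraries and in the SB library. SFM replicate 1 held 46 counts and SB 38, against 2 in AA3, 2 and 0 in the AA15 pair and 3 in AA100. These are 2.99 CPM [2.24 to 3.99] in SFM replicate 1, 2.53 CPM [1.84 to 3.47] in SB and at most 0.194 CPM in any activin library. SFM replicate 2, with 2 counts, sat with the activin libraries and not with its own pair. Relative to AA100, SFM replicate 1 was 15.4-fold higher by its counts (counting interval 4.95 to 77.3). In the fit with both SFM libraries the changes from SFM were -3.49 ± 2.09 (AA3), -4.37 ± 1.72 (AA15) and -2.92 ± 1.98 (AA100) on the log2 scale (± SE), none called. Without SFM replicate 2 the edgeR changes were -4.36 ± 0.93, -5.21 ± 0.82 and -3.78 ± 0.87, all called (adjusted p 0.00051, 1.1e-07 and 0.00052); without SFM replicate 1 they were -0.60, -1.46 and -0.03, none called.

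Dhrs3, which can turn retinaldehyde back into retinol, had few counts throughout the dose set. It was counted 5 and 18 times in the SFM pair, 6 in SB, 23 in AA3, 22 and 33 in the AA15 pair and 15 in AA100. The SB library and SFM replicate 1 were the lowest, at 0.399 CPM [0.183 to 0.870] and 0.325 CPM [0.139 to 0.760], and AA15 replicate 2 the highest at 2.26 CPM [1.61 to 3.18]. SFM replicate 2 lay within the range of the activin libraries here too. The AA15 change from SFM was 0.89 ± 0.97 with both SFM libraries and 2.60 ± 0.73 without replicate 2, which edgeR called (adjusted p 0.0068). Without SFM replicate 1 it was 0.052 ± 0.58 (edgeR adjusted p 0.94).

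Cyp26a1, the clearing enzyme, was lowest with the inhibitor and highest at the top activin dose. It was counted 13 times in SB, 39 and 135 in the SFM pair, 74 in AA3, 125 and 86 in the AA15 pair and 277 in AA100. This is 0.864 CPM [0.505 to 1.48] in SB, 4.71 CPM [3.75 to 5.91] in AA3 and 17.9 CPM [15.9 to 20.2] in AA100, so AA100 was 20.7-fold above SB by its counts (counting interval 11.9 to 39.5). The AA15 libraries, at 7.96 and 5.89 CPM, lay between AA3 and AA100, while SFM replicate 2, at 10.3 CPM, lay above both. With both SFM libraries the edgeR change of SB from SFM was -3.21 ± 1.33 (unadjusted p 0.063) and that of AA100 1.20 ± 1.05, neither called. The SB change was -1.49 ± 0.54 without SFM replicate 2, not called (edgeR adjusted p 0.10), and -3.99 ± 0.47 without replicate 1, called (edgeR adjusted p 2.8e-16). Without SFM replicate 2, AA100 was higher than SFM by 2.93 ± 0.41 (adjusted p 1.5e-09), and the slope over SFM, AA3, AA15 and AA100 was 0.93 ± 0.13 per step (adjusted p 0.00061). With replicate 2 as the only SFM library AA3 was instead lower, by -1.49 ± 0.37, AA100 differed by 0.42 ± 0.35, and the slope was 0.13 ± 0.26 per step, not called.

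Crabp1 was low in all 4 activin libraries and had more counts at the highest dose than at the lowest. The SFM pair held 106 and 47 counts and SB 96, against 7 in AA3, 16 and 11 in the AA15 pair and 34 in AA100. The lower SFM library, 3.60 CPM [2.71 to 4.79], was above AA100, 2.20 CPM [1.57 to 3.08], and AA3 was lowest at 0.446 CPM [0.216 to 0.920]. The values without activin and those with it did not overlap, although the intervals of SFM replicate 2 and AA100 did. The share of all genes that separate in this way is not given here. The changes from SFM were -3.59 ± 0.78 in AA3 (unadjusted p 0.0063) and -2.61 ± 0.55 in AA15 (0.0055), not called by edgeR with both SFM libraries. Crabp1 was called lower in AA3 and AA15 whichever SFM library was left out, by -3.81 and -2.81 without replicate 2 and by -3.35 and -2.36 without replicate 1.

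Crabp2 stepped down with each activin dose, and it had the most counts of the 8 members in every dose-set library except AA100 and SFM replicate 2, where Cyp26a1 had more. SB held 3477 counts and SFM replicate 1 2835, AA3 1395, the AA15 pair 476 and 446, and AA100 179. The levels were 231 CPM [224 to 239], 184 CPM [177 to 191], 88.8 CPM [84.3 to 93.6], 30.3 and 30.6 CPM, and 11.6 CPM [10.0 to 13.4] in that order, with no overlap between doses. SFM replicate 2, at 110 counts and 8.43 CPM, was below every activin library, 21.9-fold under its own pair. Without it the slope was -1.31 ± 0.10 per step and called by edgeR (adjusted p 4.9e-06), and AA100 was lower than SFM by -3.88 ± 0.32. With replicate 2 as the only SFM library the sign turned: Crabp2 was called higher than SFM in AA3 (3.04 ± 0.33) and AA15 (1.50 ± 0.29). The AA100 change was then 0.089 ± 0.33 and the slope -0.48 ± 0.61, neither called. With both, the slope was -0.96 ± 0.43 (adjusted p 0.41).

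Of the receptors, Rarb alone was counted in the dose set. It held 6 to 14 counts in every library, 0.460 to 0.891 CPM, and all 7 intervals overlapped. Its changes from SFM lay between -0.48 ± 0.85 in SB and 0.51 ± 0.79 in AA3. Rara and Rarg were at 0 counts in all 7 libraries, which in the shallowest library still allows 0.230 CPM (3 counts).

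**Figure D1:**
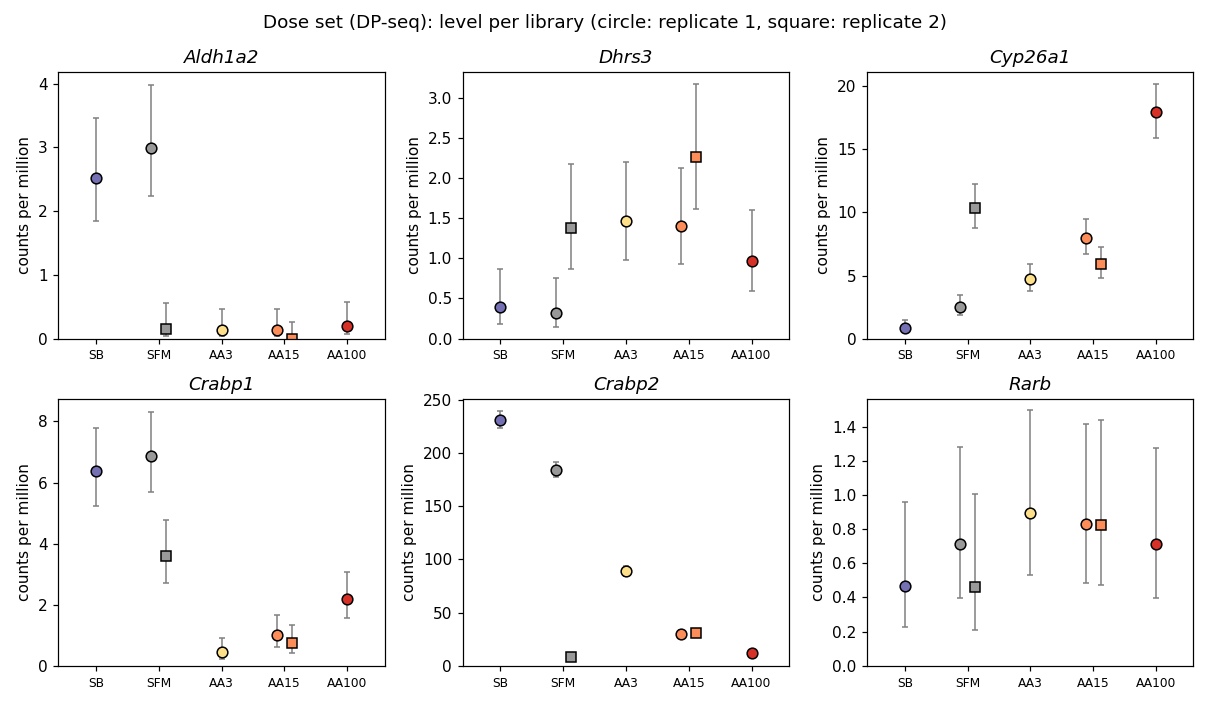
Level in CPM (vertical axis) of the 6 members counted in the dose set, by group, with circles for replicate 1, squares for replicate 2 and bars for 95% Wilson intervals. Crabp2 steps down from SB to AA100, Cyp26a1 is highest in AA100, and the square of SFM replicate 2 lies away from its pair for Aldh1a2, Dhrs3, Cyp26a1 and Crabp2.

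The slope called 48 of 12102 genes (0.397%) with both SFM libraries and 0 of 6 members tested. The count of members called in the dose set depended on which SFM library entered. Without SFM replicate 2, edgeR called 0 of 6 members with SB (4.12% of all genes), 3 in AA3 (5.27%), 5 in AA15 (13.0%), 4 in AA100 (12.9%) and 3 in the slope (5.79%). Without SFM replicate 1 it called 4 with SB (58.4%), 3 in AA3 (57.3%), 3 in AA15 (64.7%), 0 in AA100 (59.2%) and 0 of 5 in the slope (0.0168%). The member counts without replicate 1 were near or below the shares of all genes called in the same comparisons.

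The step from AA3 to AA100 needs no SFM library and was also sequenced in 3 methods. In standard RNA-seq, edgeR called 7849 of 12605 genes (62.3%) and 6 of 7 members tested, 4 lower (31.1% of all genes) and 2 higher (31.1%). Only the AA3 pair gives the spread of this fit, and this pair was close to what counting alone gives (a chi-square over genes of 1.32 times its degrees of freedom). In a joint fit of all 10 method-set libraries 269 of 14072 genes (1.91%) and 0 of 8 members were called. DP-seq at 50 pg called 399 of 11631 genes (3.43%) and 0 of 5 members, SMART-seq 155 of 11453 (1.35%) and 0 of 5. DESeq2 called 3 members in SMART-seq (9.91% of all genes): Cyp26a1, Crabp1 and Crabp2, all lower in AA100.

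Aldh1a2 showed the widest gap between doses in standard RNA-seq. It held 110 and 102 counts in AA3 and 5 in AA100, 10.2 and 9.80 CPM against 0.481 CPM [0.206 to 1.13], and the change was -4.32 ± 0.36 (edgeR adjusted p 2.7e-29; 0.49 in the joint fit). SMART-seq held 41 and 8 counts in AA3 and 0 in both AA100 libraries, so AA3 was at least 15.0-fold higher with the 2 AA100 libraries summed and set at 3 counts. Against the same floor the bound was 26.1-fold for AA3 replicate 1 alone and 4.73-fold for replicate 2 alone. DP-seq at 50 pg held 81 counts in AA3 and 33 and 111 in AA100, and its groups overlapped. The standard and SMART-seq libraries thus ordered the doses alike and the DP-seq pair did not separate them. Dhrs3 was under the filter in standard RNA-seq, with 3, 5 and 6 counts, and its SMART-seq groups overlapped at 0.879 and 1.89 CPM against 3.59 and 1.59 CPM.

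Cyp26a1 was lower in AA100 in all 3 methods. The standard libraries held 1839 and 1836 counts in AA3 and 1211 in AA100, which are 171 and 176 CPM against 117 CPM [110 to 123], a change of -0.55 ± 0.05 (edgeR adjusted p 1.2e-31; 0.87 in the joint fit). SMART-seq gave 134 and 112 CPM in AA3 and 55.6 and 66.9 CPM in AA100, a change of -1.06 ± 0.18 (edgeR adjusted p 0.069). DP-seq at 50 pg gave 38.3 CPM and then 25.0 and 15.4 CPM, a change of -0.93 ± 0.49 (adjusted p 0.38). No AA100 library reached an AA3 library of its own method. Per kilobase of its longest listed transcript, Cyp26a1 had the highest level of the 8 members in each standard library, 95.6 and 98.5 CPM per kb in AA3 and 65.1 in AA100.

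Crabp1 and Crabp2 both had lower levels in AA100 in standard RNA-seq and SMART-seq, without overlap. Crabp1 went from 27.8 and 23.7 CPM to 6.45 CPM [5.08 to 8.19] in standard RNA-seq (-1.97 ± 0.15, edgeR adjusted p 5.4e-35; 0.61 in the joint fit) and from 85.0 and 78.2 CPM to 26.1 and 13.4 CPM in SMART-seq (-2.11 ± 0.35, adjusted p 0.065). In DP-seq at 50 pg Crabp1 had 34 counts in AA3 and 34 and 5 in AA100. Crabp2 went from 19.0 and 18.1 CPM to 8.37 CPM [6.79 to 10.3] in standard RNA-seq (-1.12 ± 0.15, edgeR adjusted p 6.2e-12; 0.51 in the joint fit) and from 48.6 and 38.2 CPM to 16.9 and 9.38 CPM in SMART-seq (-1.79 ± 0.38, adjusted p 0.10; 0.037 in the joint fit). In DP-seq at 50 pg Crabp2 was 11.4 CPM in AA3 and 10.4 and 10.2 CPM in AA100, and the 3 intervals overlapped.

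The receptors were measured best by standard RNA-seq, and there all 3 had more counts in AA100. Rarg held 60 and 49 counts in AA3 and 96 in AA100 (5.59 and 4.71 against 9.24 CPM [7.57 to 11.3]), a change of 0.86 ± 0.20 (edgeR adjusted p 6.0e-05). Rarb held 35 and 52 counts and then 69 (0.71 ± 0.23, edgeR adjusted p 0.0048). Rara held 14, 18 and 22 counts (0.51 ± 0.43), not called. DESeq2 called neither Rarg (adjusted p 0.092) nor Rarb (0.26), and both had an adjusted p of 1.0 in the joint fit. In AA100, per kilobase, Rarg stood at 3.13, Rarb at 2.14 and Rara at 0.626 CPM per kb.

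In the 50 pg libraries receptor counts scattered between technical replicates. Rarb held 9 and 145 counts in the SMART-seq AA3 pair and 61 and 1 in the AA100 pair, and 5 and 68 in the DP-seq AA100 pair. Rara and Rarg were at 0 in all 3 DP-seq libraries at 50 pg. SMART-seq counted Rara 11 times and Rarg 2 times, all in AA3 replicate 1.

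**Figure D2:**
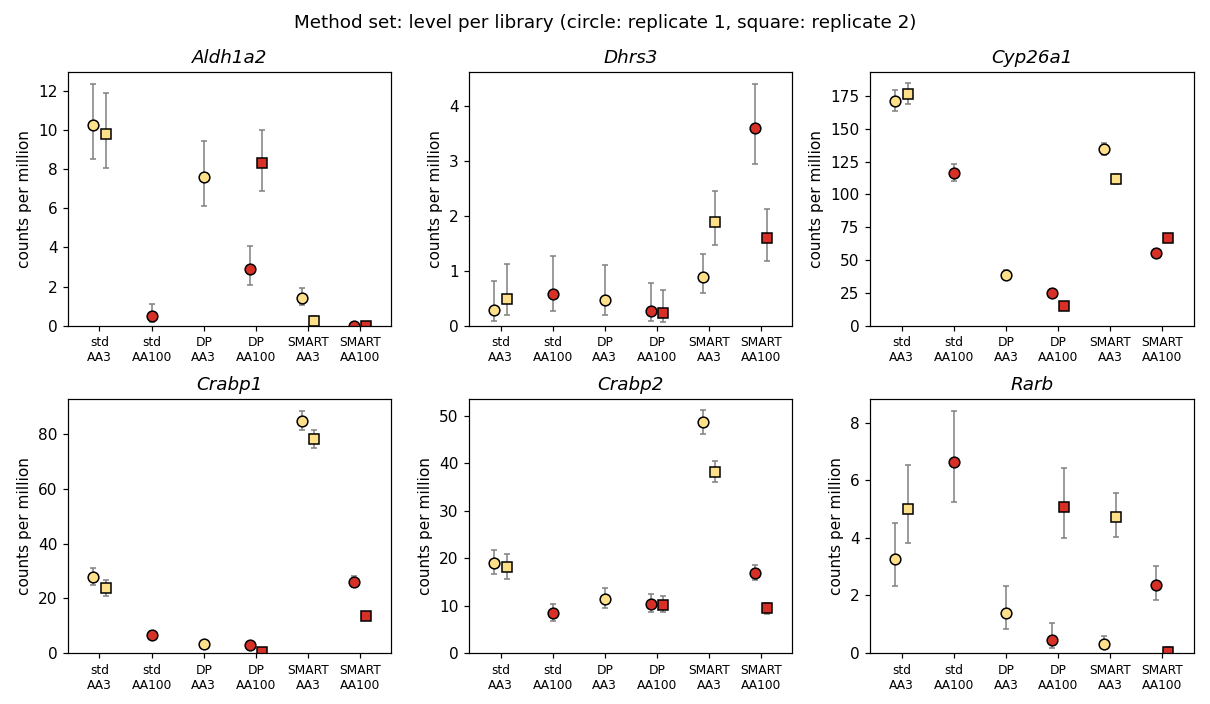
Level in CPM (vertical axis) of 6 members in AA3 and AA100 by method, circles for replicate 1, squares for replicate 2, bars for 95% Wilson intervals. Cyp26a1, Crabp1 and Crabp2 are lower in AA100 in standard RNA-seq and SMART-seq, and the Rarb replicates of SMART-seq lie far apart.

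The listed transcripts of a gene share sequence, and the deposited values are reads placed at 1 transcript. For each listed transcript, the share of its 32-base words found in no other listed isoform of the gene was 100% for the 5 members with 1 transcript. The shares were 46.4% and 6.15% for Dhrs3, 22.7%, 5.56%, 2.05% and 1.98% for Rara and 23.1% and 16.4% for Rarg. The Rara transcript at 22.7% took 45 counts in the 3 standard libraries, and the others took 2, 7 and 0. How reads shared between isoforms were counted, and how long the reads were, is not given in the sources used here, and the part of this in the low counts of these 3 genes was not tested.

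**Figure D3:**
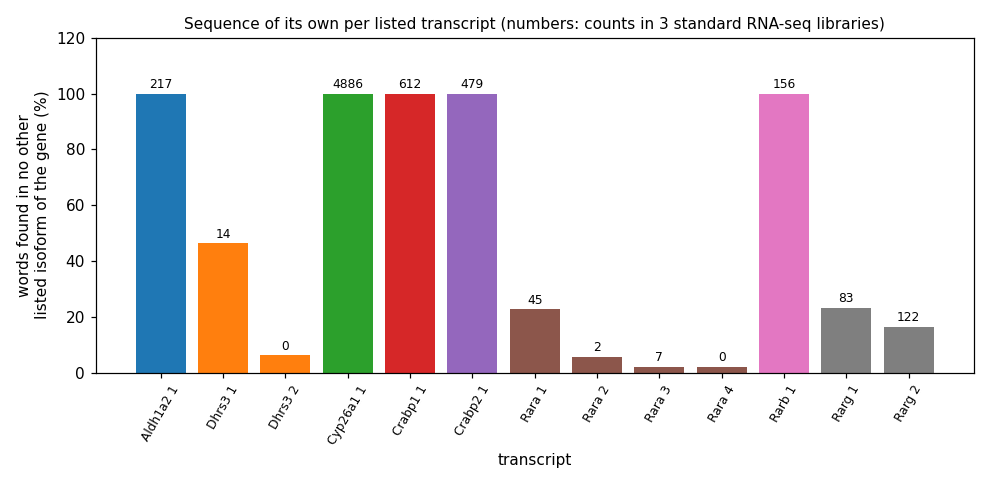
Share of 32-base words found in no other listed isoform of the gene (vertical axis, percent), 1 bar for each listed transcript, with the counts in the 3 standard RNA-seq libraries above each bar. Bars of the genes with 1 transcript reach 100%, and those of Rara and Rarg stay at or below 23.1%.

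The same dose step went the other way for Cyp26a1 and Crabp1 in the dose set. There AA100 over AA3 was 3.81 for Cyp26a1 and 4.94 for Crabp1 by mean CPM, against 0.671 and 0.251 in standard RNA-seq, 0.527 and 0.527 in DP-seq at 50 pg and 0.498 and 0.242 in SMART-seq. Crabp2 was lower in AA100 in all 4 sets by mean CPM, at 0.130, 0.452, 0.898 and 0.303. In DP-seq at 50 pg the counting interval of its ratio, 0.720 to 1.12, included no change. Of all genes with over 6 counts, AA100 stood above AA3 in every library for 51.3% in the dose set, 42.9% in standard RNA-seq, 35.9% in DP-seq and 24.7% in SMART-seq, and below for 48.7%, 46.2%, 36.2% and 21.2%.

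Fitted with edgeR over all 7 dose-set libraries, the AA100 against AA3 change was 1.92 ± 1.30 for Cyp26a1, 2.27 ± 0.81 for Crabp1 and -2.95 ± 1.87 for Crabp2, with 0 of 12180 genes called (0.0%; 128 at an unadjusted p under 0.05; DESeq2 called 0). Although neither group is SFM, the SFM pair sets the spread. Without SFM replicate 1 edgeR called 605 genes (5.01%) and without replicate 2 560 (4.64%), each time 3 of 6 members, with Cyp26a1 and Crabp1 higher and Crabp2 lower in AA100. The difference between the dose-set change and the standard RNA-seq change was 2.48 ± 1.21 for Cyp26a1 (unadjusted p 0.067) and 4.25 ± 1.47 for Crabp1 (unadjusted p 0.016), and edgeR called 0 of 14757 genes after adjustment (0.0%; 199 at an unadjusted p under 0.05; DESeq2 25 genes, no member). The change did not differ from that of standard RNA-seq past the threshold for any member in DP-seq at 50 pg (104 of 14072 genes, 0.739%) or SMART-seq (120, 0.853%).

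**Figure D4:**
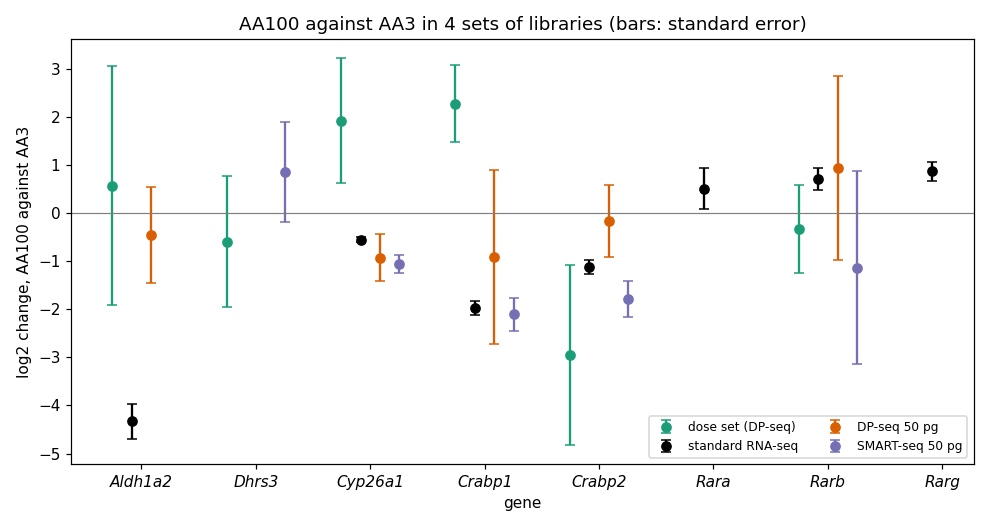
Log2 change of AA100 against AA3 (vertical axis) for each member in the 4 sets of libraries where it passed the count filter, with bars for the standard error. Cyp26a1 and Crabp1 lie above 0 in the dose set and below 0 in the 3 methods, and Crabp2 lies below 0 in all 4.

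The AA3 material of the 2 sets also differed in level within DP-seq. Crabp2 was 88.8 CPM in the dose-set AA3 library and 8.68 and 13.5 CPM in DP-seq of 10 ng of AA3 mRNA from the dilution series. Cyp26a1 was 4.71 CPM and then 40.8 and 36.1 CPM, Crabp1 0.446 and then 18.0 and 24.6 CPM, and Aldh1a2 0.127 and then 7.07 and 5.33 CPM. The labels do not say whether the 2 sets share RNA, and the mRNA input of the dose set is not given in the labels.

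Markers of several cell types also differed between AA3 and AA100. The 12 paraxial and head mesoderm genes summed to 8.79 CPM in dose-set AA3 and 40.1 CPM in AA100, but to 131 and 136 CPM in standard AA3 and 30.8 CPM in AA100, 137 and then 16.0 to 18.3 CPM in DP-seq at 50 pg, and 34.5 to 41.9 and then 5.37 to 17.3 CPM in SMART-seq. Of these, 8 of 11 tested were called lower in standard RNA-seq (31.1% of all genes were), 4 of 9 in DP-seq and 0 of 8 in SMART-seq; in the joint fit 0, 4 and 1 of 11 were called lower in the same order. The sum was higher in AA100 in the set where Cyp26a1 and Crabp1 were higher, and lower in the others. Msgn1 was at 0 in the dose-set AA3 and AA100 libraries, and Tbx1 in AA100. Over the rest of the dose set the sum did not follow Cyp26a1, at 24.1 CPM in SB, 18.1 to 29.8 CPM in SFM and 14.0 to 14.4 CPM in AA15. Lateral and extraembryonic mesoderm genes had the same orders between AA3 and AA100. They summed to 39.3 and then 154 CPM in the dose set, and 73.8 to 76.7 and then 70.2 CPM in standard RNA-seq. The sums were 28.4 and then 17.6 to 20.4 CPM in DP-seq at 50 pg. In SMART-seq they were 21.2 to 22.5 and then 9.10 to 15.5 CPM. Definitive and anterior endoderm genes summed to 119 CPM in AA3 and 920 CPM in AA100 of the dose set, and to 638 to 639 and then 1216 CPM in standard RNA-seq, with 7 of 8 tested called higher there (31.1% of all genes were) and 2 of 8 in the joint fit. They summed to 528 and then 2124 to 2510 CPM in DP-seq at 50 pg and to 248 to 282 and then 1209 to 1282 CPM in SMART-seq. Of the endoderm genes tested, 1 of 8 was called higher and 1 lower in DP-seq, and 1 of 7 higher in SMART-seq. Their median log2 change was 1.03 in standard RNA-seq, 0.90 in DP-seq at 50 pg and 0.11 in SMART-seq. The rise of the SMART-seq sum thus does not describe the typical endoderm gene. Primitive streak genes summed to 2.93 CPM in SB (Eomes and Fgf8 at 0), 289 CPM in AA3 and 1197 CPM in AA100 of the dose set, and to 992 to 1018 and then 1239 CPM in standard RNA-seq. The sums had the opposite order in DP-seq at 50 pg, at 570 and then 476 to 538 CPM. In SMART-seq they did so too, at 314 to 346 and then 247 to 256 CPM. The median log2 change of the streak genes tested was above 0 in all 3 methods, however. It was 0.60 in standard RNA-seq, 0.30 in DP-seq at 50 pg and 0.45 in SMART-seq (8, 8 and 6 genes tested). The 10 neuroectoderm genes summed to 1850 CPM in SB, 884 CPM in AA3 and 860 CPM in AA100 of the dose set. Their median log2 change from AA3 to AA100 there was -2.90, so the near-level sum does not describe the typical gene. The sums rose from 493 to 495 to 587 CPM in standard RNA-seq and from 646.5 to 855 to 965 CPM in DP-seq at 50 pg. In SMART-seq they were 112 to 146 and then 162 to 170 CPM. The median changes in these methods were -0.30, -0.15 and -0.22, over 9, 9 and 5 tested genes. Extraembryonic endoderm genes went against the mesoderm sums in the dose set, at 79.5 CPM in AA3 and 45.05 CPM in AA100. They also did so in standard RNA-seq, at 2.88 to 4.28 and then 10.9 CPM. In SMART-seq the sums were 1.57 to 4.15 and then 13.7 to 19.01 CPM. In DP-seq at 50 pg, 2.53 CPM in AA3 lay within the 0.224 to 3.51 CPM of AA100. DP-seq of 10 ng of AA3 mRNA gave 2.81 to 3.86 CPM. The part of cell types in the members' levels was not tested, and in bulk RNA fewer cells of a type and less RNA per cell cannot be told apart.

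The other 66 genes listed for the pathway included 36 tested in standard RNA-seq, of which 9 were higher and 17 lower in AA100 (median change -0.22, against -0.01 over all genes). Of all genes 62.3% were called in this fit, 31.1% in each direction. DP-seq at 50 pg tested 31, with 0 higher and 2 lower, and SMART-seq 32, with 0 higher and 1 lower. In the joint fit 40 were tested, and the calls were 0 in standard RNA-seq, 1 lower in DP-seq, and 1 higher and 3 lower in SMART-seq. All comparisons with SFM called 0 of 38 with both SFM libraries.

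Retinol uptake, storage and transport genes were lower in standard RNA-seq AA100 in 5 of 5 tested of 11 listed, where 31.1% of all genes were called lower. In the joint fit 0 of 7 were called in standard RNA-seq, and the separate fits called 0 of 4 in DP-seq and 1 of 6, lower, in SMART-seq. Dgat1, which can esterify retinol, fell by 0.97 ± 0.12 in standard RNA-seq, and Fabp5, a fatty acid binding protein that also takes up retinoic acid, by 0.47 ± 0.04. In SMART-seq Dgat1 stood at 8.54 and 9.83 CPM in AA3 and 3.78 and 16.1 CPM in AA100, and its groups overlapped.

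Among 11 tested genes of synthesis and its reversal, 2 were higher and 3 lower in standard RNA-seq, a smaller share than the 62.3% of all genes called. Rdh10, the main retinol dehydrogenase of the embryo, was 11.6 and 13.0 CPM in AA3 and 6.16 CPM in AA100 (-0.97 ± 0.18). In DP-seq at 50 pg Rdh10 had the opposite order, 5.99 CPM and then 9.21 and 22.4 CPM (1.38 ± 0.77, edgeR adjusted p 0.41). The SMART-seq change of Rdh10 was -1.17 ± 1.10, not called. Rdh13 was -0.98 ± 0.11 in standard RNA-seq but 1.78 ± 0.28 in SMART-seq (edgeR adjusted p 0.057) and 0.70 ± 0.71 in DP-seq at 50 pg. Standard RNA-seq and SMART-seq thus pointed in opposite directions for Rdh13. Of the other breakdown genes, Cyp2s1 was higher (1.89 ± 0.19) and Cyp26c1 lower (-1.29 ± 0.47, edgeR adjusted p 0.011) in standard RNA-seq. The Cyp2s1 change was -1.52 ± 2.55 in SMART-seq, on 42 and 0 counts in AA3 and 14 and 0 in AA100.

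All 11 receptor partners and cofactors were tested there, with 4 higher and 3 lower, a share close to the 62.3% of all genes called. Ncor1, a corepressor, was higher by 0.64 ± 0.03 in standard RNA-seq and by 0.46 ± 0.24 in SMART-seq, where it was not called. In DP-seq at 50 pg it stood instead at 368 CPM in AA3 and 211 and 282 CPM in AA100 (-0.60 ± 0.22, not called). The coactivator Crebbp was lower by -0.56 ± 0.07 and by -1.78 ± 0.35 in DP-seq at 50 pg (edgeR adjusted p 0.0040). Ep300, a related coactivator, was called in opposite directions, 0.15 ± 0.03 in standard RNA-seq and -0.71 ± 0.20 in DP-seq. Genes known to respond to retinoic acid had 7 of 21 tested, 2 higher and 5 lower (62.3% of all genes were called), with a median change of -1.45 in standard RNA-seq. In the joint fit 0 of 7 were called there (median -1.46), and in DP-seq at 50 pg 0 of 4, with a median of 1.02. Hoxb1, an early hindbrain and mesoderm Hox gene, held 51 and 41 counts in AA3 and 2 in AA100 (-4.39 ± 0.58), and in SMART-seq 145 and 87 against 5 and 10, not called (edgeR adjusted p 0.15). Meis1 was lower in standard RNA-seq (-2.61 ± 0.60), and its change in SMART-seq was 0.65 ± 1.40.

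In the dilution series Cyp26a1, Crabp1 and Crabp2 were counted 29 to 68 times in each library from 10 pg of mRNA and 0 to 4 times from 1 pg. Cyp26a1 was 40.8 and 36.1 CPM from 10 ng, 17.8 and 23.3 from 1 ng, and 41.97 and 26.1 from 100 pg. It was 28.4 and 25.1 CPM from 50 pg, 15.6 and 21.4 from 10 pg, and 1 and 2 counts remained from 1 pg. The Cyp26a1 level thus did not fall steadily with input. Crabp1 held 56 and 254 counts from 10 ng, 237 and 100 from 50 pg, 59 and 31 from 10 pg and 0 and 4 from 1 pg. Aldh1a2 held 22 and 55 counts at 10 ng, 7 and 3 at 10 pg and 0 in both libraries at 1 pg, where 0 counts allow up to 7.02 CPM. Rarb held 12 and 15 counts from 10 ng, 4 and 11 from 50 pg, 0 and 2 from 10 pg and 0 from 1 pg. Dhrs3 held 0 to 6 counts from 10 ng and 1 ng and 0 or 1 from all lower inputs. Rara was at 0 in all 12 libraries and Rarg at 0 or 1.

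**Figure D5:**
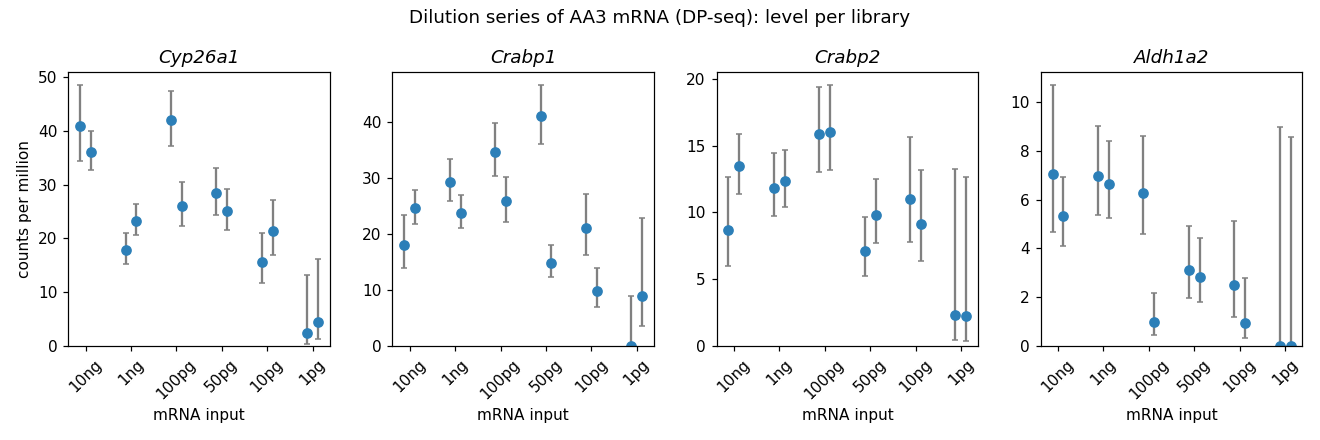
Level in CPM (vertical axis) of 4 members in DP-seq libraries from 10 ng to 1 pg of AA3 mRNA (horizontal axis), 1 point for each technical replicate with its 95% Wilson interval. Cyp26a1, Crabp1 and Crabp2 are counted down to 10 pg in both replicates, and each 1 pg library holds 0 to 4 counts of each gene.

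The members' levels also varied with the primer set. Primer set 1 gave 156 CPM of Crabp1, against 3.59 and 2.60 CPM with primer sets 2 and 3, and Crabp2 was 66.2, 2.19 and 0.930 CPM. Cyp26a1 was 50.2, 6.57 and 16.0 CPM in the same order, while Aldh1a2 was highest with set 2, at 4.17, 13.3 and 5.58 CPM. Each set was 1 library of AA3 mRNA. The paired-end library gave 2.56 CPM of Cyp26a1 [1.55 to 4.23] and 1.20 CPM of Crabp1 [0.579 to 2.47].

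Profiles over 11 groups, the 5 of the dose set and both doses of each method, were compared as log2(CPM + 1) after centring each set, by the root mean square difference over 9518 genes with at least 10 CPM in some group. The nearest genes to Aldh1a2 were Ccnd2 (0.30) and, among others, Dpysl2, and those to Cyp26a1 were Arl4d (0.21), Rtl8c and Itga8. Crabp1 was nearest to Sp8 (0.19), Fbn2 and Ccnd2, and Crabp2 to Ptn (0.46), Sorcs1 and Lgi1. Of the members with a profile, Aldh1a2 and Crabp1 lay closest to each other (0.42) and Cyp26a1 and Crabp2 farthest apart (1.69).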

How the data were processed

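Day 4 embryoid body mRNA was measured by sequencing in 33 libraries. Per the file headers, the authors deposited counts of unique reads for each RefSeq transcript. In 8 files the counts are not all whole (15 values), so they were treated as estimated counts, as deposited, and rounded. Aligner, build and read length: not given in the sources used here. Of 26566 transcripts, 25857 were named through a RefSeq table and 150 through GENCODE, 559 were left unnamed, and counts were summed to 21844 genes.

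Groups came from the labels. edgeR 4.0.16 (R 4.3.3) fitted each comparison over all genes with TMM scaling, filterByExpr (minimum count 10, total 15), the robust quasi-likelihood test and Benjamini-Hochberg adjustment at 0.05. The 7 dose-set libraries shared 1 spread, and each method had its own fit. Alternatives were DESeq2 1.42.0, RLE scaling, no filter, leaving out libraries, the replicate block, other dose codings and a joint method fit. Scripts were tested on simulated data. SE is the log2 change divided by the root of F. A change between groups that all held 0 counts was not estimated.

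The 8 members and all lists were chosen with earlier results of these data known. From each pathway list, up to 3 genes called in a method were named by size of change, given at least 50 counts. Chosen after seeing the data were the dose-set AA100 against AA3 comparisons, the crossed block, the 32-base words, the over 6 counts minimum, the Aldh1a2 bounds for single SMART-seq libraries and the promoter search, in which 3 spacings were tried. Some genes that this rule or the profile comparison named are not reported here.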

Additional observations from a re-analysis of the deposited data

Results flagged for a closer look

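Several members were ordered oppositely by dose in 2 sets of libraries, with every AA100 library above every AA3 library in one set and below in another. Of all genes past the count minimum, AA100 stood above AA3 for 51.3% and below for 48.7% in the dose set. In standard RNA-seq these shares were 42.9% and 46.2%. The share of all genes ordered oppositely between sets was not counted, so the members flagged here are not shown to be unusual. The ratio of mean CPM in AA100 over AA3 was 3.806 for Cyp26a1 in the dose set, against 0.6706 in standard RNA-seq, 0.5272 in DP-seq at 50 pg and 0.4975 in SMART-seq. For Crabp1 it was 4.938 in the dose set, against 0.2505, 0.527 and 0.2419 in the same order. Dhrs3 had ratios of 0.663 in the dose set and 0.5203 in DP-seq at 50 pg against 1.52 in standard RNA-seq, on 3 to 23 counts a library. Rarb had 0.7988 in the dose set and 1.609 in standard RNA-seq.

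These orders were found without a test. The dose-set change was compared with that of standard RNA-seq afterwards, and edgeR gave an adjusted p of 1.0 for all 4 members. Between DP-seq at 50 pg and standard RNA-seq the Dhrs3 changes differed by -1.53 ± 1.85 (edgeR adjusted p 0.91). The dose set has 1 library at each of these doses, so its groups always separate when their values differ.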

How the results depend on the processing

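Among member values under the alternatives, 427 kept direction and side of the threshold, 33 gained a call, 21 lost one and 25 turned sign. DESeq2 called 17 (SB), 14 (AA3), 168 (AA15), 106 (AA100), 497 (slope), 4431 (standard RNA-seq), 1135 (SMART-seq, 3 members) genes, and 508, 477 and 25 for the differences of DP-seq, SMART-seq and the dose set from standard RNA-seq. The replicate block called 10 genes (AA15), 0 (slope) and 54 (SMART-seq); same-numbered libraries had deviations correlated at -0.209 (SFM and AA15) and -0.026 (SMART-seq), so the numbers were not taken as pairs, and a crossed block for AA15 called 0. The slope called 18 genes with log2(dose + 1) coding and 196 with SB as the lowest step. The joint fit called 269 genes (0 members) in standard RNA-seq and 573 (1 member) in SMART-seq, and SMART-seq without the filter called 250 (1 member). Leaving out 1 library in turn gave 0 to 7055 genes (SB), 0 to 6921 (AA3), 0 to 7815 (AA15), 0 to 7156 (AA100), 0 to 693 (slope), 47 to 53 (standard RNA-seq, joint fit), 505 to 519 (DP-seq, joint fit), 11 to 18 (SMART-seq), 5 to 291 and 8 to 18 (differences of DP-seq and SMART-seq from standard RNA-seq), and 0 to 605 and 0 to 46 for the 2 dose-set comparisons of AA100 with AA3. Members called then ranged from 0 to 4, 3, 5, 4 and 3 in the first 5, stayed at 0 in the next 5 and reached 3 and 0 in the last 2. Cyp26a1 turned in AA15 to 0.27 under the block and 0.27 under the crossed block. Over the left-out libraries, changes that turned ranged from -0.19 to 3.56 (Aldh1a2), -2.19 to 0.34 (Dhrs3) and -0.055 to 0.40 (Crabp1) in SB; from -0.27 to 2.25 (Dhrs3), -1.49 to 1.00 (Cyp26a1) and -0.94 to 3.04 (Crabp2) in AA3; from -0.93 to 1.58 (Cyp26a1) and -2.46 to 1.50 (Crabp2) in AA15; from -0.87 to 1.67 (Dhrs3) and -3.88 to 0.089 (Crabp2) in AA100; and from -0.17 to 0.45 for the Dhrs3 slope. In AA100 against AA3 they ranged from -1.37 to 0.10 (Aldh1a2) and -1.65 to 1.82 (Rarb) in DP-seq and from -6.03 to 1.82 (Rarb) in SMART-seq. For the differences from standard RNA-seq they ranged from -1.12 to 1.89 (Crabp1) and -2.36 to 1.12 (Rarb) in DP-seq, and from -0.53 to 0.80 (Dhrs3), -0.74 to 0.18 (Crabp1) and -6.79 to 1.04 (Rarb) in SMART-seq. The cause of these moves was not tested. A group left with 1 library took its spread from the rest of the fit. In the dose set, 3 or fewer counts a library for Aldh1a2 with activin, and 0 for Rara and Rarg, limit what can be read.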
